A study of Mus musculus with 8 samples.

Results

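Gda, Map3k9 and Ccdc88c were examined as 3 of the 23284 gene symbols counted by RNA-sequencing of mouse ovarian surface epithelial cells with and without activated Notch3. They were chosen by the measured counts themselves, as large falls from the Control to the Notch3IC line seen in all 4 matched sets, so the size and direction of that fall are a description here and carry no test. The cells were ID8 IP2, a serially mouse-passaged derivative (host strain C57BL/6) of the ovarian surface epithelial line ID8, and were grown in DMEM with 10% fetal bovine serum. Control lines carried the empty pCCL lentiviral vector. Notch3IC lines carried the same vector with the HA-tagged intracellular domain of Notch3 (codons 1664 to 2318) followed by IRES-GFP. Both kinds of line also carried a luciferase-mCherry lentivirus. Each of Sets 1 to 4 was a matched Control and Notch3IC line from its own round of infection, which gave 4 libraries per group. Probable mycoplasma contamination, which the study states for these lines, is a limit that Control and Notch3IC share. The libraries come from 1 parental line with a constitutively expressed receptor fragment. Library totals were 24910528, 19013578, 23601232 and 28208072 counts in the 4 Controls in set order, and 22980440, 15524262, 25344051 and 27107061 in the Notch3IC lines.

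The 3 genes belong to different pathways. Gda encodes guanine deaminase, which hydrolyses guanine to xanthine and so takes the base out of the salvage pool and towards uric acid; in neurons, where the protein is known as cypin, it also binds the scaffold PSD-95. Map3k9 encodes mixed lineage kinase 1, a serine/threonine kinase that is activated by the small GTPases Rac1 and Cdc42 and phosphorylates the kinases upstream of JNK, with JIP proteins as scaffolds. Ccdc88c encodes Daple, a relative of girdin that binds Dishevelled and, downstream of Frizzled receptors, activates inhibitory G proteins in non-canonical Wnt signalling. Notch receptors act through the intracellular domain, which enters the nucleus and, with the DNA-binding factor RBPJ, switches on targets such as the Hes and Hey repressors.

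On GRCm38 with GENCODE M21, Gda (ENSMUSG00000058624.13) lies on the minus strand at chr19:21391307-21473445, with 6235 exon bases and no overlap with another annotated gene. Map3k9 (ENSMUSG00000042724.8) is at chr12:81721010-81781175 on the minus strand, has 5902 exon bases and is likewise free of overlap. Ccdc88c (ENSMUSG00000021182.16), on the minus strand of the same chromosome at chr12:100911523-101029056, has 11386 exon bases, of which 4.15% are shared with the antisense gene A630072L19Rik. Since the sources used here do not say whether reads were counted by strand, reads over that stretch cannot be assigned to either gene.

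The sequences upstream of Map3k9 and Gda are shown so that motifs of RBPJ and of Hes and Hey proteins could be looked for upstream of a RefSeq start. Both are from RefSeq (GRCm38.p6, minus strand) and run 5′ to 3′ from 250 to 21 bases before the annotated start, at chr12:81781191-81781420 and chr19:21472682-21472911 respectively, with capitals marking the only motif match. The RefSeq start of Gda used here lies 784 bases downstream of the outermost GENCODE start, so its window is inside the gene as placed above, and 11 bases from the nearest GENCODE transcript start. That of Map3k9 is 5 bases from the GENCODE start. The RefSeq promoter set used here held no entry for Ccdc88c, whose upstream sequence was therefore not searched.
Map3k9: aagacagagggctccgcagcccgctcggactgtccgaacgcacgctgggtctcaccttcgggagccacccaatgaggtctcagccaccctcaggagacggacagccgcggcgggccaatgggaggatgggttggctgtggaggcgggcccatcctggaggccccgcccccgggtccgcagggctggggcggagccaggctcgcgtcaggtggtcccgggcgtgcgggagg
Gda: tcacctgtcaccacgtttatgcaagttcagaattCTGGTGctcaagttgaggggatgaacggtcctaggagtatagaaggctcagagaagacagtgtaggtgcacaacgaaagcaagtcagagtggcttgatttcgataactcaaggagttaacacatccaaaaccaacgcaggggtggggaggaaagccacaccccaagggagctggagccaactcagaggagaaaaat
These windows were searched on both strands for the RBPJ core TGGGAA, the E-box CACGTG, the HEY-type site CACGCG and the N-box CACNAG. No match was found in the Map3k9 window. The Gda window held 1 N-box, on the opposite strand, whose span begins 216 bases before the start. Among 32851 RefSeq promoter windows of the same length, 20% held the RBPJ core, 5.35% the E-box, 6.82% the HEY-type site and 34.5% the N-box, so an N-box match is common. The 2 windows differed in base composition, with 72.6% G or C for Map3k9 and 49.1% for Gda against a median of 51.7%. Of the Map3k9 window, 63 bases lie in an exon of the divergent non-coding gene 4930423D22Rik, which was not analysed here.

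Gda had 117, 264, 869 and 530 counts in the Control libraries, listed from Set 1 to Set 4 here and throughout, and 27, 66, 78 and 66 in Notch3IC. Normalized to library size, that is 116, 315, 831 and 420 against 30.2, 96.7, 71.7 and 55.7. The groups did not overlap, but the gap was narrow, since the lowest Control, Set 1, was 1.20 times the highest Notch3IC library, that of Set 2. The means were 421 ± 301 and 63.6 ± 27.9 (SD, n = 4 per group), a 6.62-fold fall, and the fitted log2 fold change was -2.73 (SE 0.59). Because these are bulk cultures, fewer cells expressing a gene and less RNA per cell cannot be told apart.

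Map3k9 had 385, 441, 904 and 1180 counts in the Controls and 58, 155, 95 and 100 in the Notch3IC lines. The normalized counts were 382, 526, 865 and 935 against 64.8, 227, 87.3 and 84.4. Set 2 again had the highest Notch3IC value, 227, and the lowest Control was 1.68 times that library. The mean fell from 677 ± 266 to 116 ± 74.7 (SD, n = 4 per group), which is 5.84-fold, with a fitted log2 fold change of -2.56 (SE 0.46), or -3.20 without Set 2.

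Ccdc88c had 195, 79, 163 and 241 counts in the Controls and 28, 31, 26 and 30 in the Notch3IC lines. Its normalized counts were 193, 94.3, 156 and 191 against 31.3, 45.4, 23.9 and 25.3. Of the 3 genes it had the widest gap between groups, the lowest Control, Set 2, being 2.08 times the highest Notch3IC library. The mean fell from 159 ± 46.2 to 31.5 ± 9.82 (SD, n = 4 per group), or 5.04-fold, and the fitted log2 fold change was -2.35 (SE 0.31).

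**Figure D1:**
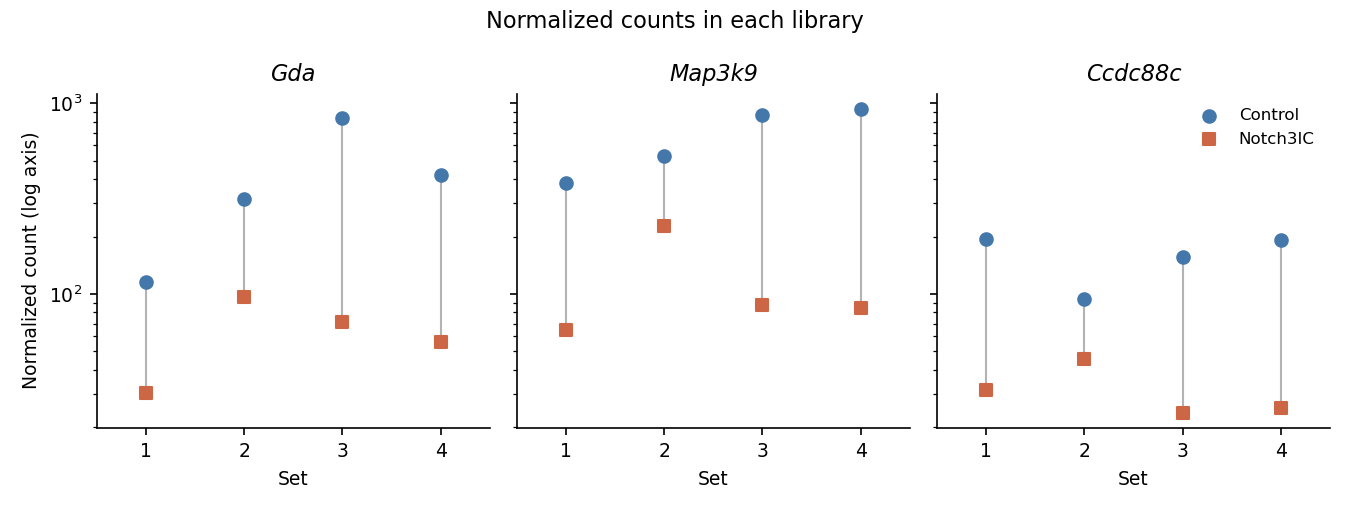
Normalized counts (log axis) of Gda, Map3k9 and Ccdc88c for each of Sets 1 to 4 on the x axis, with Control as circles, Notch3IC as squares and a line joining the libraries of a set. The square lies below the circle in every set, and Gda has the widest spread among Controls, from 116 to 831.

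All 3 genes passed the study's thresholds (adjusted p under 0.1, with the log2 fold change at or beyond 1 in either direction), as did 92 of the 12430 genes tested in the lower direction (0.74%); 423 genes (3.4%) passed in the higher direction. The selection itself put the 3 genes in the lower group. Without Set 3 or without Set 4 no gene was called lower by edgeR, these 3 included. All fits with libraries or sets left out were without the set as a block, which was not tried on them. Gda also lost its call without any single library of Set 3 or Set 4, at log2 fold changes of -2.16 and -2.80 without the Control and Notch3IC library of Set 3 and -2.73 and -2.67 without those of Set 4. Map3k9 lost its call without the Set 3 Control (-2.42), the Set 4 Control (-2.36) or the Set 4 Notch3IC library (-2.44), while Ccdc88c stayed called without any 1 library. Among the 70 genes that were called lower, fell in all 4 sets and had at least 50 counts in each Control, Gda ranked at 1, Map3k9 at 3 and Ccdc88c at 4 by log2 fold change. Between Gda and Map3k9 stood Msln, which encodes the mesothelial surface protein mesothelin, at -2.60 (SE 0.63). Just below Ccdc88c came Bhlha15, a helix-loop-helix factor of secretory cells, at -2.28, and Olr1, the oxidised LDL receptor, at -2.21.

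The 3 genes varied more among Controls than most genes, a trait not particular to them. The coefficient of variation over the 4 Controls was 71.7% for Gda, 39.3% for Map3k9 and 29.1% for Ccdc88c, against a median of 13.7% over the 10906 genes with a mean of at least 50 normalized counts in Controls. Gda varied more than 98.7% of those genes, Map3k9 more than 92.2% and Ccdc88c more than 84.9%. Other genes high in the ranking of falls had wide Control spreads too. Msln was at 2348 ± 1151 in Controls, Bhlha15 at 223 ± 125, Olr1 at 777 ± 437 and Upk1b, ranked at 7, at 4287 ± 1321 (SD, n = 4). For Gda the highest Control was 7.17 times the lowest, while its Notch3IC libraries spanned 3.20-fold. For Map3k9 the Notch3IC libraries spanned 3.50-fold, more than the 2.45-fold of its Controls. Set 1 had the lowest Control value of Gda and Map3k9, whereas that of Ccdc88c was in Set 2.

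Within sets, the log2 ratio of Notch3IC to Control for Gda was -1.92, -1.70, -3.53 and -2.90 in Sets 1 to 4. The corresponding ratios for Map3k9 were -2.55, -1.21, -3.30 and -3.46. Those for Ccdc88c were -2.61, -1.05, -2.68 and -2.89. The smallest fall of each gene was thus in Set 2, where Control exceeded Notch3IC by 3.25-fold for Gda, 2.32-fold for Map3k9 and 2.06-fold for Ccdc88c. A ratio below 0 in all 4 sets was seen for 2409 of the genes tested (19.4%), and groups that did not overlap, with Notch3IC lower, for 466 (3.75%).

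Set 2 also had the least Notch3 and the least Hey1, a Notch target that encodes a transcriptional repressor, among the Notch3IC lines. Normalized Notch3 counts were 38.6, 40.6, 70.8 and 42.0 in the Controls and 4319, 467, 9215 and 5839 in the Notch3IC lines, without separating the insert's transcripts from those of the endogenous gene. Hey1 was at 29.7, 20.3, 56.4 and 34.1 in Controls and at 4077, 438, 10635 and 8009 in Notch3IC lines. The log2 ratios in Sets 1 to 4 were 6.79, 3.51, 7.01 and 7.10 for Notch3 and 7.08, 4.40, 7.55 and 7.86 for Hey1. The set with the smallest rise of both was therefore the set with the smallest fall of Gda, Map3k9 and Ccdc88c, but this relation was not tested over the 4 sets, and the Set 2 Notch3IC library was also the shallowest of the 8.

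**Figure D2:**
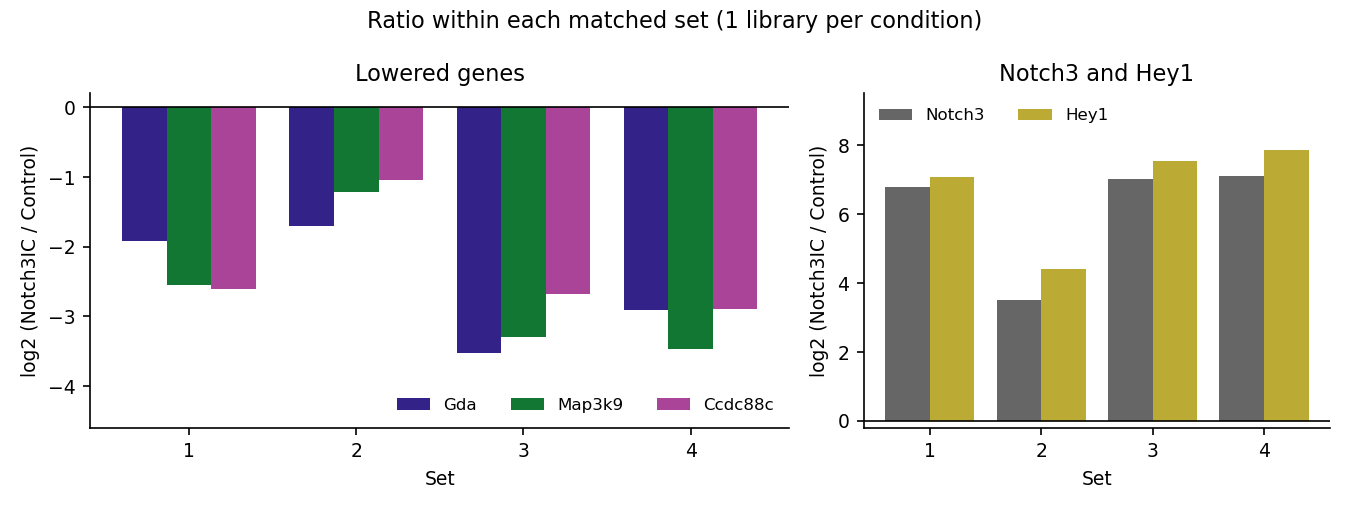
Log2 ratio of Notch3IC to Control within each of Sets 1 to 4 as bars for Gda, Map3k9 and Ccdc88c (left) and for Notch3 and Hey1 (right, on its own scale), from 1 library per condition and set. Set 2 is nearest to 0 for all 5 genes, at -1.05 to -1.70 for the lowered genes and 3.51 and 4.40 for Notch3 and Hey1.

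To compare levels between genes, normalized counts were divided by exon length in kb. In Controls the level per kb was 115 ± 45.0 for Map3k9, 67.4 ± 48.3 for Gda and 13.9 ± 4.05 for Ccdc88c (SD, n = 4). In Notch3IC lines these levels were 19.6 ± 12.7, 10.2 ± 4.48 and 2.76 ± 0.86. The order Map3k9, Gda, Ccdc88c held in 8 of 8 libraries, although the Control ranges of Map3k9 and Gda overlapped across sets.

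Among the 5 mixed lineage and leucine zipper-bearing kinases compared here, the mean level per kb of Map3k9 was above those of Map3k12 and Map3k13 in Controls (in the Set 1 Control it was below Map3k12), and above that of Map3k13 alone in Notch3IC lines. Map3k21, a further mixed lineage kinase, was not analysed here. In Controls, Map3k11 (mixed lineage kinase 3) had 753 ± 40.9 normalized counts per kb, Map3k10 (mixed lineage kinase 2) 217 ± 41.8, Map3k12 (dual leucine zipper kinase) 81.0 ± 6.82 and Map3k13 (leucine zipper-bearing kinase) 1.94 ± 0.95. In Notch3IC lines the same genes were at 718 ± 38.0, 224 ± 24.0, 90.5 ± 17.1 and 3.11 ± 0.94 per kb. Map3k9 thus accounted for 9.87% ± 4.03 of the summed level of these 5 genes in Controls (range 5.44% to 14.3%) and 1.87% ± 1.24 in Notch3IC lines (1.01% to 3.71%). None of the other 4 was called, in a fit that called 0.74% of all genes lower and 3.4% higher. Their log2 fold changes were 0.05 for Map3k10, -0.07 for Map3k11, 0.16 for Map3k12 and 0.67 for Map3k13.

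In the Daple family, the level of Ccdc88a, which encodes girdin, was 153 ± 24.9 per kb in Controls and 192 ± 35.8 in Notch3IC lines, far above that of Ccdc88c. Ccdc88b, which encodes the relative known as GIPIE, was at 5.72 ± 1.46 and 3.43 ± 1.34 per kb. The share of Ccdc88c in the family's summed level went from 8.14% ± 2.29 (4.82% to 9.69%) to 1.42% ± 0.51 (1.11% to 2.18%). Neither relative was called (against 0.74% of all genes lower and 3.4% higher, or 2.53% and 5.19% with the set as a block), with log2 fold changes of 0.34 for Ccdc88a (edgeR adjusted p = 0.320, and 0.0357 with the set as a block, higher in 4 of 4 sets) and -0.76 for Ccdc88b (adjusted p = 0.304).

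**Figure D3:**
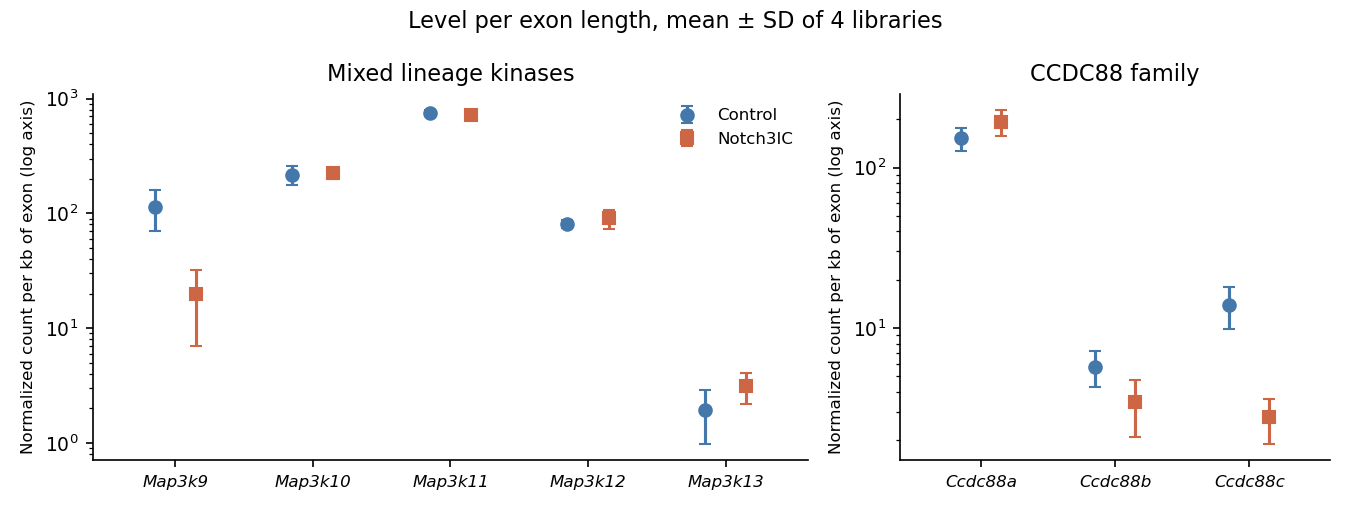
Normalized counts per kb of exon (log axis) for the mixed lineage kinase genes and the CCDC88 family, as mean ± SD of 4 libraries per group, with Control as circles and Notch3IC as squares. Map3k9 and Ccdc88c are lower in Notch3IC lines, while Map3k11 goes from 753 to 718 per kb and Ccdc88a from 153 to 192.

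The question of whether other parts of each gene's pathway moved with it was put to lists of relatives, partners and pathway members. Close relatives and partners numbered 24 in the files, 21 of which could be tested. None was called in either direction by edgeR, DESeq2 or edgeR with the set as a block, where 0.74% and 3.4% of all genes were called lower and higher by edgeR, and 1 had an unadjusted p under 0.05 (4.76%, against 18.4% of all genes). With the set as a block, 7 of the 21 had an adjusted p under 0.1 below the fold limit (33.3%, against 27.1% of all genes at that p with any fold), namely Xdh, Aprt, Ada, Ccdc88a, Map3k20, Mapk8ip1 and Dvl1. Their block adjusted p lay between 0.0285 for Xdh and 0.0920 for Dvl1. The list's median log2 fold change was -0.00, beside -0.01 over all genes tested. Of the enzymes around guanine, the salvage enzymes Hprt and Aprt were at -0.00 and -0.32, purine nucleoside phosphorylase (Pnp) at -0.13, and xanthine dehydrogenase (Xdh), which acts on the product of guanine deaminase, at -0.60 (adjusted p = 0.640 without the block). Of the kinases below Map3k9, Map2k4 was at 0.13, Map2k7 at -0.09, Mapk8 (JNK1) at -0.12 and Mapk9 (JNK2) at -0.20, and the JIP scaffold genes Mapk8ip1 and Mapk8ip3 were at 0.39 and -0.00. The Dishevelled genes Dvl1, Dvl2 and Dvl3, whose products Daple binds, were at -0.32, -0.06 and 0.04, and Map3k20, a more distant kinase of the mixed lineage group, was at 0.36. Pnp2, Mapk10 and Mapk8ip2 were too low to test.

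Purine breakdown and salvage was represented by 27 genes besides Gda, 23 of them tested. None was called in either direction by edgeR, DESeq2 or the block fit, which called 0.74%, 1.37% and 2.53% of all genes lower and 3.4%, 5.05% and 5.19% higher, although 8 had an unadjusted p under 0.05 (34.8%, against 18.4% of all genes), and the median log2 fold change was -0.10. The values ran from -0.72 for Gmpr, a guanosine monophosphate reductase, to 0.84 for Ada, adenosine deaminase. Ada (SE 0.21, adjusted p = 0.0685) and Nt5e, the ecto-nucleotidase CD73, at -0.55 (SE 0.12, adjusted p = 0.0464) passed the p threshold in edgeR without reaching the fold limit. With the set as a block 10 of the 23 genes did so (43.5%, against 27.1% of all genes at that p with any fold).

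Of 43 tested genes of the MAP3K and JNK cascade other than Map3k9, none was called lower (against 0.74% of all genes) and 1 was called higher (2.33%, against 3.4%). That gene, Dusp1, encodes a phosphatase that switches off MAP kinases. It went from 356 ± 35.1 to 843 ± 371 normalized counts (log2 fold change 1.24, SE 0.30, edgeR adjusted p = 0.0623). The call was lost in 11 of 19 alternative settings. Over all 19, whether the call was kept or lost, its adjusted p ranged from 0.00212 (DESeq2) to 0.418 (edgeR without Set 4). With the set as a block, Jun, the AP-1 subunit phosphorylated by JNK, was also called higher (log2 fold change 1.12, adjusted p = 0.0473), in a fit that called 5.19% of all genes higher. Its means were 671 ± 178 and 1586 ± 738, and the edgeR adjusted p without the block was 0.134. DESeq2 called the same 2 genes higher (5.05% of all genes) and no member lower (1.37% of all genes). The list's median was 0.05. Among the other 14 MAP3K genes tested none was called (against 0.74% of all genes lower and 3.4% higher), the values lying between -0.70 for Map3k5 and 0.67 for Map3k13, and 1 had an unadjusted p under 0.05 (7.14%). With the set as a block, 3 of the 14 had an adjusted p under 0.1 with any fold (21.4%, against 27.1% of all genes), Map3k5 among them. Without the Set 2 Notch3IC library, Map3k5 was at -1.43 and was called lower (edgeR adjusted p = 0.0880). That fit called 305 of 12588 genes lower. Over the whole cascade list, 6 of 43 had an unadjusted p under 0.05 without the block (14%), against 18.4% of all genes. With the set as a block, 10 of the 43 had an adjusted p under 0.1 with any fold (23.3%, against 27.1% of all genes).

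Of 38 tested genes of Daple, Dishevelled and planar polarity signalling other than Ccdc88c, none was called lower (against 0.74% of all genes) and 1 was called higher (2.63%, against 3.4%). Gnao1, the alpha subunit of an inhibitory-class G protein, had 8, 4, 8 and 2 counts in the Controls and 31, 16, 28 and 40 in the Notch3IC lines. Its normalized counts rose from 5.48 ± 2.97 to 29.4 ± 5.65 (log2 fold change 2.42, SE 0.44, edgeR adjusted p = 0.0298), with no overlap between groups. The call was lost in 4 of 19 alternatives, each of which left out libraries. Celsr1, a planar polarity cadherin, was at 1052 ± 427 in Controls and 466 ± 183 in Notch3IC lines. It was called lower with the set as a block (log2 fold change -1.12, adjusted p = 0.0747; 2.53% of all genes were called lower in that fit) and by DESeq2, but not without the block (-1.18, adjusted p = 0.148). The list's median was 0.01, and 7 of its genes (18.4%, the same share as over all genes) had an unadjusted p under 0.05. With the set as a block, 13 of the 38 had an adjusted p under 0.1 with any fold (34.2%, against 27.1% of all genes). Prickle2, another planar polarity gene, is outside these 38, being too low for the edgeR filter, with 1, 5, 2 and 1 counts in the Controls and 6, 6, 8 and 22 in the Notch3IC lines. It was called higher by DESeq2, which called 5.05% of 14019 genes higher and 1.37% lower.

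**Figure D4:**
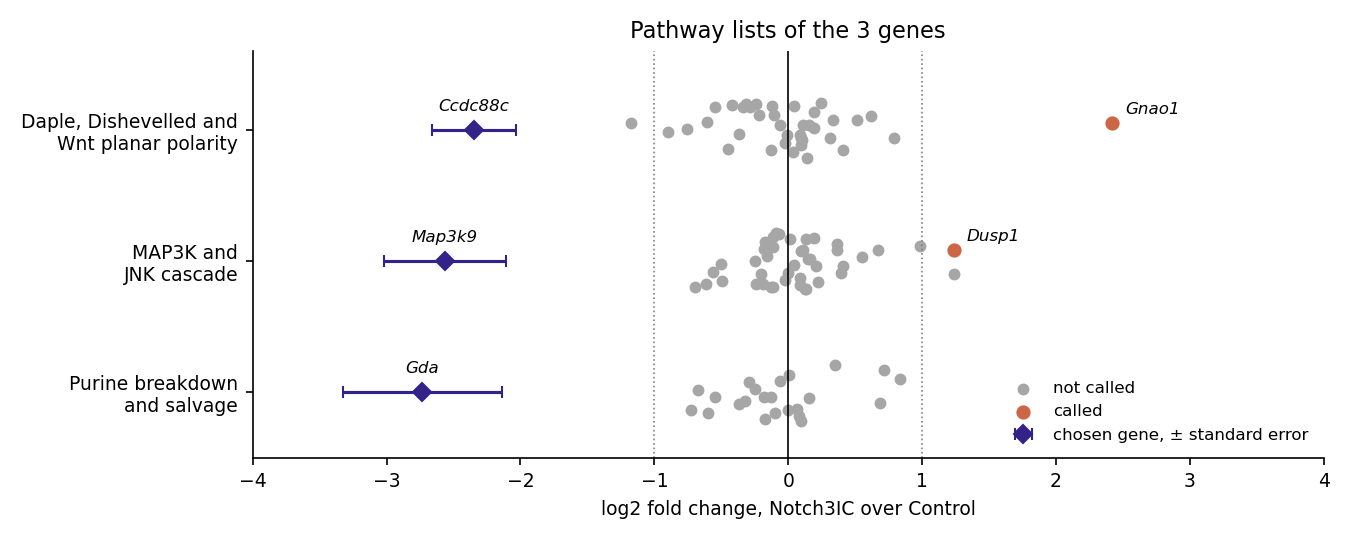
Log2 fold change (Notch3IC over Control) of the tested genes of the lists for purine metabolism, the MAP3K and JNK cascade, and Daple, Dishevelled and planar polarity, with 1 point per gene, called genes in orange, Gda, Map3k9 and Ccdc88c as diamonds with their standard errors, and dotted lines at -1 and 1. The 3 genes lie at -2.73, -2.56 and -2.35, below the lowest value of their lists at -0.72, -0.70 and -1.18.

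Nearby genes were then compared, taking the 2 nearest protein-coding genes on either side of each start site. Of these 12 genes, 9 were tested and 1 was called, in the lower direction, where 0.74% of all genes were. Ttc9, which encodes a tetratricopeptide repeat protein and starts 149.9 kb from Map3k9, was at 818, 631, 1378 and 1462 normalized counts in the Controls and 296, 247, 379 and 316 in the Notch3IC lines. The groups did not overlap, and the mean fell from 1072 ± 410 to 310 ± 54.3 (log2 fold change -1.79, SE 0.28, edgeR adjusted p = 0.0243). The call was lost only without Set 3 (adjusted p = 0.230) and without Set 4 (0.274) among 19 alternatives. Pcnx, at 78.8 kb on the other side of Map3k9, was not called (0.29, adjusted p = 0.226), nor was Med6 (-0.05) or Sipa1l1 (-0.22).

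Around Gda, Zfand5 was at -0.13 (adjusted p = 0.662), 1110059E24Rik at 0.04 and Abhd17b at -0.13, all within 201.2 kb, while Tmc1 was too low to test. Next to Ccdc88c, Ppp4r3a, whose start site is 54.6 kb away, was at 0.00 (adjusted p = 0.998) and Dglucy at 0.44. Catsperb was too low to test. None of these genes was called.

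**Figure D5:**
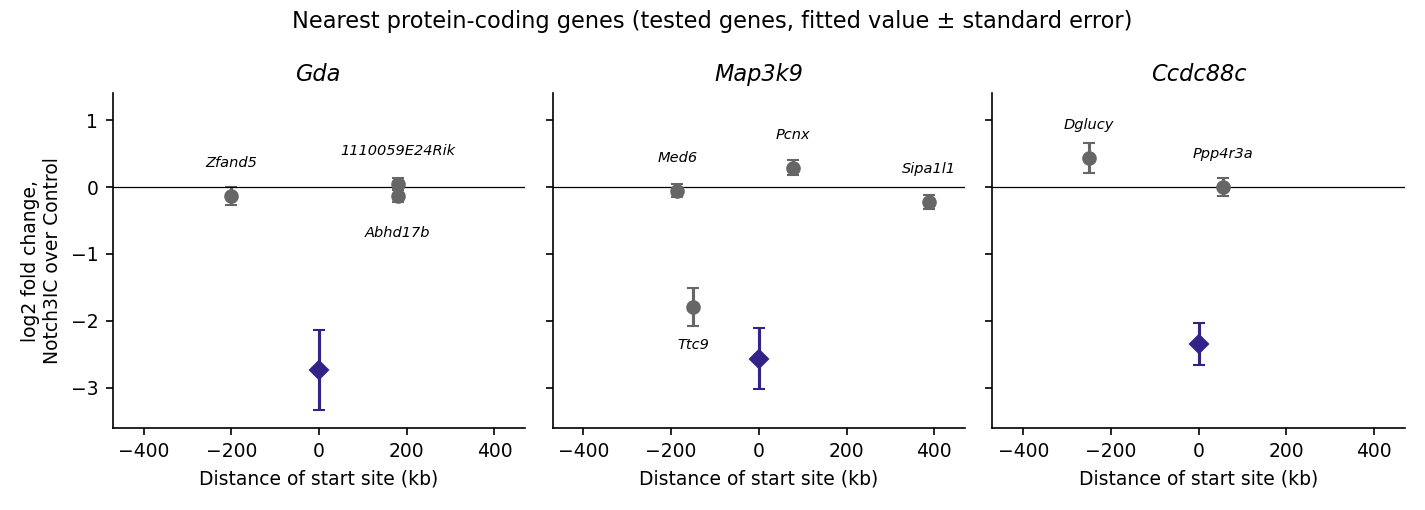
Log2 fold change with its standard error (Notch3IC over Control) for Gda, Map3k9, Ccdc88c and their tested neighbours, against the distance of the neighbour's start site in kb, negative towards lower coordinates. Diamonds are the 3 genes and circles the neighbours. Ttc9 at -1.79 is the only neighbour below -1, and the other 8 lie between -0.22 and 0.44.

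The genes most like each of the 3 over the 8 libraries were found by the root-mean-square distance between log2 normalized counts centred on each gene's mean, among 11039 genes with a mean of at least 50. Closest to Gda were Bhlha15 (0.31), Nfe2l3 (0.40), a CNC-family transcription factor, and Olr1 (0.45). Bhlha15 had 66.4, 189, 356 and 280 normalized counts in the Controls and 13.4, 82.0, 51.5 and 38.0 in the Notch3IC lines, so that Set 1 was lowest in both groups, as for Gda. Closest to Map3k9 were Lpl (0.37), which encodes lipoprotein lipase, the tetraspanin gene Upk1b (0.38) and LOC434205 (0.43). For Ccdc88c they were Lpl (0.39), Dlk2 (0.39), which encodes a transmembrane relative of the Notch ligand Delta, and the BMP-family ligand gene Gdf6 (0.44). Dlk2 had 475, 180, 256 and 363 normalized counts in the Controls and 67.1, 160, 31.2 and 50.7 in the Notch3IC lines, nearly level in Set 2. Gda and Map3k9 were 0.51 apart, each among the 9 genes nearest to the other. Map3k9 and Ccdc88c were 0.57 apart, at rank 20 from either side. Gda and Ccdc88c, at 0.94, were less alike, though still nearer than the median gene (1.54 from Gda and 1.23 from Ccdc88c). These distances include the fall itself and so describe a pattern that the choice of genes partly fixed.

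Markers were used to check the cells behind these values. Of 9 tested markers of ovarian surface epithelium, 7 had a negative log2 fold change, as did 6410 of all 12430 genes, and the median was -0.74. The other 2 were Lhx9 at 0.36, higher in 4 of 4 sets, and Cdh2 at 0.08, and neither was called. Msln was called lower, from 2348 ± 1151 to 389 ± 290 normalized counts (edgeR adjusted p = 0.0625), a call lost in 7 of 19 alternatives, and the keratin gene Krt19 (log2 fold change -2.10) and the uroplakin gene Upk3b (-1.98) were called lower as well with the set as a block. Over all genes, 0.74% were called lower without the block and 2.53% with it. The summed normalized counts of the 10 listed markers were 30485, 46473, 70449 and 67898 in the Controls and 16060, 31781, 31010 and 25464 in the Notch3IC lines, lower in each set. Upk3b was the most abundant of them in all 4 Controls. In the Notch3IC lines it was Cdh2 in Set 1, Upk3b in Sets 2 and 3 and Wt1 in Set 4. The lowest Control sum was in Set 1, as for Gda and Map3k9. Of 4 tested fibroblast markers, Pdgfrb, a growth factor receptor gene, was called higher, from 90.5 ± 82.0 to 5640 ± 3585 (log2 fold change 5.99, edgeR adjusted p = 0.0169), and the collagen gene Col1a1 was called higher with the set as a block (log2 fold change 1.04) but not by edgeR without it (1.01, adjusted p = 0.166). The Pdgfrb call was lost in 2 of 19 alternatives, without Set 3 (adjusted p = 0.215) and without Set 4 (0.221). Its log2 fold change was 6.76 without the Set 2 Control, 7.06 without Set 2 and 5.31 without Set 4. Over all genes, 3.4% were called higher without the block and 5.19% with it. Pdgfra was at 0.49 and was not called, whereas the proteoglycan gene Dcn had a negative value (-0.47) and was lower in 4 of 4 sets, also without being called. Lum and Thy1 were too low to test. The summed fibroblast markers, mostly Col1a1, were 143422, 106319, 80366 and 64661 in the Controls and 270482, 132945, 167879 and 202546 in the Notch3IC lines. The part of these marker changes in the falls of Gda, Map3k9 and Ccdc88c was not tested. Leukocyte markers summed to between 74.9 and 204 in every library, with Cd3e and Emr1 at 0 in all 8 and Ptprc at 0 in all 4 Controls. Most of that sum was Cd14 and Cd68, the 2 leukocyte markers tested. Cd14 was at 95.9 ± 13.3 in Controls and 62.8 ± 23.5 in Notch3IC lines, and Cd68 at 80.8 ± 29.3 and 61.1 ± 21.4. Each was lower in 4 of 4 sets without being called. Endothelial markers summed to between 11.9 and 50.3.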

How the data were processed

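RNA-sequencing counts of 8 libraries, a Control and a Notch3IC line in each of Sets 1 to 4, were analysed. Per the study's methods, poly-A RNA gave single-end reads. The submitters' processing notes name TopHat, Cufflinks, DESeq and the mm9 build. Tool versions, the gene annotation and strandedness are not given in the sources used here. The authors deposited raw counts per gene symbol for 23284 symbols, and 17359 of these were above 0 in some library. Positions, exon lengths and neighbours were taken by symbol or synonym from GENCODE M21 (GRCm38), which placed 22825 symbols; the files hold no coordinates.

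Notch3IC was compared with Control by edgeR 4.0.16 (TMM, filterByExpr by condition, robust quasi-likelihood F test, Benjamini-Hochberg adjustment over 12430 genes) in R 4.3.3 with Python 3.11.15. Calls required an adjusted p under 0.1 with the log2 fold change at or beyond 1 in either direction, the study's thresholds. Standard errors are the log2 fold change divided by the square root of F. The biological coefficient of variation was 26.3%, and 14.1% with the set as a block. Normalized counts are counts over the TMM-scaled library size times the mean library size; within-set ratios use a pseudocount of 0.5. By the study's description sets are matched lines, and deviations from group means correlated across genes at 0.79, 0.41, 0.57 and 0.43 within Sets 1 to 4 against -0.51 to 0.40 for crossed pairs, so the set numbers pair the libraries. Blocked values are printed beside the calls given in the text that they change. The procedure was tested on simulated data.

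Named genes were the 3 genes themselves, their close relatives and partners, the called members of 3 pathway lists, the 3 closest genes by pattern and the 2 nearest protein-coding neighbours per side, of which 1 is not reported here; Gmpr, Nt5e, Jun, Celsr1, Prickle2 and Map3k5 were singled out from the lists once values were known. The genes and lists were chosen with earlier results of these data known. Alternatives were DESeq2 1.42.0, RLE size factors, library totals, no expression filter, the block and a pseudocount of 3. An adjusted p under 0.05, no fold limit and leaving out each library or set were also tried. The leave-outs used edgeR without the block.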

Additional observations from a re-analysis of the deposited data

Results flagged for a closer look

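In 11 of the 106 groups of 4 libraries examined, among the named genes and the library totals, 1 library lay apart from the other 3 by Dixon's criterion. Chance alone gives about 1 in 20, or 5.3. The groups share the same 8 libraries, and some genes, Lpl among them, were chosen for like patterns. The flags are therefore not independent, and the excess was not tested. Map3k9 had 227 normalized counts in the Notch3IC line of Set 2, against 64.8 to 87.3 in the others. In the same library Lpl, the gene closest to Map3k9 and Ccdc88c by pattern, was at 492 against 194 to 239, the Gda neighbour Zfand5 at 5909 against 4341 to 4526, and Celsr1 at 740 against 355 to 391. The Control of Set 3 had 70.8 for Notch3, against 38.6 to 42.0 in the other Controls. In the Control of Set 1, Celsr1 was at 414 against 1215 to 1318 and Map3k20 at 3404 against 2193 to 2391. In the Control of Set 2, LOC434205 was at 181 against 224 to 230 and 1110059E24Rik at 1433 against 1655 to 1674. Map3k11 was at 3040 in the Control of Set 4, against 3367 to 3427. Ppp4r3a was at 2826 in the Notch3IC line of Set 1, against 2036 to 2164.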

How the results depend on the processing

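The log2 fold changes of Gda, Map3k9 and Ccdc88c, whose sign the choice of genes fixed, were refitted under 17 alternatives per gene. They lay between -3.10 and -2.16, -3.20 and -2.23, and -2.74 and -2.14 respectively. Leaving out 1 library ended the call of Gda in Sets 3 and 4 and that of Map3k9 for 3 libraries of those sets. Without Set 2, that of Map3k9 was -3.20 in place of -2.56, a fold change over 1.5 times as large. The 24 recomputed within-set ratios moved by at most 0.12. With the replicate block the values were -2.58 (SE 0.34), -2.64 (SE 0.41) and -2.35 (SE 0.33).

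The numbers of genes called depended on the settings. DESeq2 called 192 lower and 708 higher, and the block 315 and 645. An adjusted p under 0.05 left 48 lower, and no fold limit gave 210 lower. Leaving out 1 library or 1 set gave 0 to 305 genes lower and 0 to 702 higher. The counts lower were 146 without the Set 1 Control, 61 without the Set 1 Notch3IC line, 305 without the Set 2 Notch3IC line, 8 and 29 without the Control and Notch3IC line of Set 3, and 11 and 16 without those of Set 4. Without Sets 1 and 2 in turn, 151 and 229 were called lower. Without Set 3 or Set 4 none was by edgeR, with 1101 and 1011 genes at an unadjusted p under 0.05 in either direction. Neither DESeq2 nor the fit with the set as a block was run on these subsets.

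In the MAP3K and JNK list, 2 genes were called higher by DESeq2 and by the block, 0 at an adjusted p under 0.05 and 0 to 3 with libraries or sets left out; 0 to 1 was called lower, Map3k5 without the Set 2 Notch3IC line. In the Daple list, DESeq2 and no fold limit each gave 2 genes higher and leave-outs 0 to 1, while DESeq2 and the block each gave 1 lower and leave-outs 0 to 1. Gnao1 lost its call without the Set 3 Control (adjusted p = 0.104), the Set 4 Notch3IC line (0.107), Set 3 (0.246) or Set 4 (0.243). In the purine list, no fold limit gave 1 gene higher and 1 lower, and leave-outs 0 to 1 lower (Gmpr, without the Set 2 Notch3IC line). The causes were not tested.

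Ccdc88c had 26 to 31 counts and Gda 27 to 78 per Notch3IC library. The libraries share 1 parental line, so p-values reach no further than infections of that line. With 1 library per line, the spread between infections cannot be told apart from that between cultures or library preparations.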

Other observations

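On chromosome 12, which holds Map3k9, Ccdc88c and Ttc9, 8 of the 424 genes tested were called lower (1.89%). On chromosome 19, which holds Gda, 5 of 462 were (1.08%). Both shares include the genes that were picked for their fall and stand beside 0.74% of all genes tested.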
